A study of Rattus norvegicus with 15 samples.

Results

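MERGE.15402 is an assembled locus of the rat abdominal aorta at which a hypertensive and a normotensive strain carried different isoforms. Its members were all transcripts whose ID begins with the locus name, 8 isoforms of the 39097 transcripts listed for all 15 libraries. They are numbered 1, 2, 3, 8, 9, 10, 11 and 12, every one of them is listed in every file, and numbers 4 to 7 are listed in none. The files give no gene name, coordinates, length or sequence for the locus, so neither its gene nor its product is known here. The locus was selected on the values of untreated SHR and WKY, between which its isoforms moved apart with the smallest p of all loci, so the values of those groups are given as a description, with no test. Tests are given for the neferine-treated libraries, which did not enter that choice.

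A gene can give several transcripts through alternative start sites, splicing and end sites. Transcripts of 1 gene share much of their sequence, and an abundance estimator divides the reads that fit several of them. A change of isoform can alter the protein or the untranslated parts of a messenger RNA while the total output of the gene stays similar.

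RNA was sequenced from 15 libraries in 3 groups of 5. WKY, the Wistar Kyoto strain, and SHR, the spontaneously hypertensive strain bred from Wistar Kyoto stock, were given double distilled water for 10 weeks. The third group, SHR+Nef, were SHR rats that received neferine, a lotus seed alkaloid, at 10 mg/kg per day for 10 weeks. Treated and untreated SHR share the strain, and the sources used here give neither age nor sex. Each value is an abundance per transcript on a scale that the authors do not name, called the value below, and the share is an isoform's percentage of the summed values of the 8 isoforms in a library. Since the tissue was sequenced in bulk, a lower value from fewer cells of a type and one from less RNA per cell cannot be told apart. The files do not pair IDs with symbols, so markers of the aorta or of other tissues were not tested.

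SHR replicate 4 stood apart from the rest of the series. Of the transcripts listed for all 15 libraries 8259 were at 0 in it, against 2560 to 3739 in the other 14, and its values summed to 746274, against 496460 to 634078. Its median rank correlation with its group was 0.536, against 0.665 to 0.717 in the other libraries. SHR+Nef replicates 2 and 5, which differ from their group at this locus, did not stand apart there: 2891 and 3074 transcripts were at 0, and their median rank correlations with their group were 0.711 and 0.715, within the 0.705 to 0.715 of the group.

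MERGE.15402.9 was high in every library of the SHR strain and low in every WKY library. It stood at 0.087, 0.526, 0.282, 0.488 and 0.0514 in WKY replicates 1 to 5, and at 13.4, 11.02, 13.6, 11.5 and 8.44 in SHR replicates 1 to 5. In SHR+Nef replicates 1, 2, 4, 5 and 6 it stood at 11.3, 9.21, 12.2, 8.20 and 12.7. All 10 libraries of the SHR strain, treated or not, thus lay above all 5 WKY libraries, with no value between 0.526 and 8.20. The mean was 0.287 ± 0.220 for WKY, against 11.6 ± 2.11 for untreated and 10.7 ± 1.94 for treated SHR (SD, n = 5 each), which is 40.4-fold and 37.4-fold the WKY mean.

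**Figure D1:**
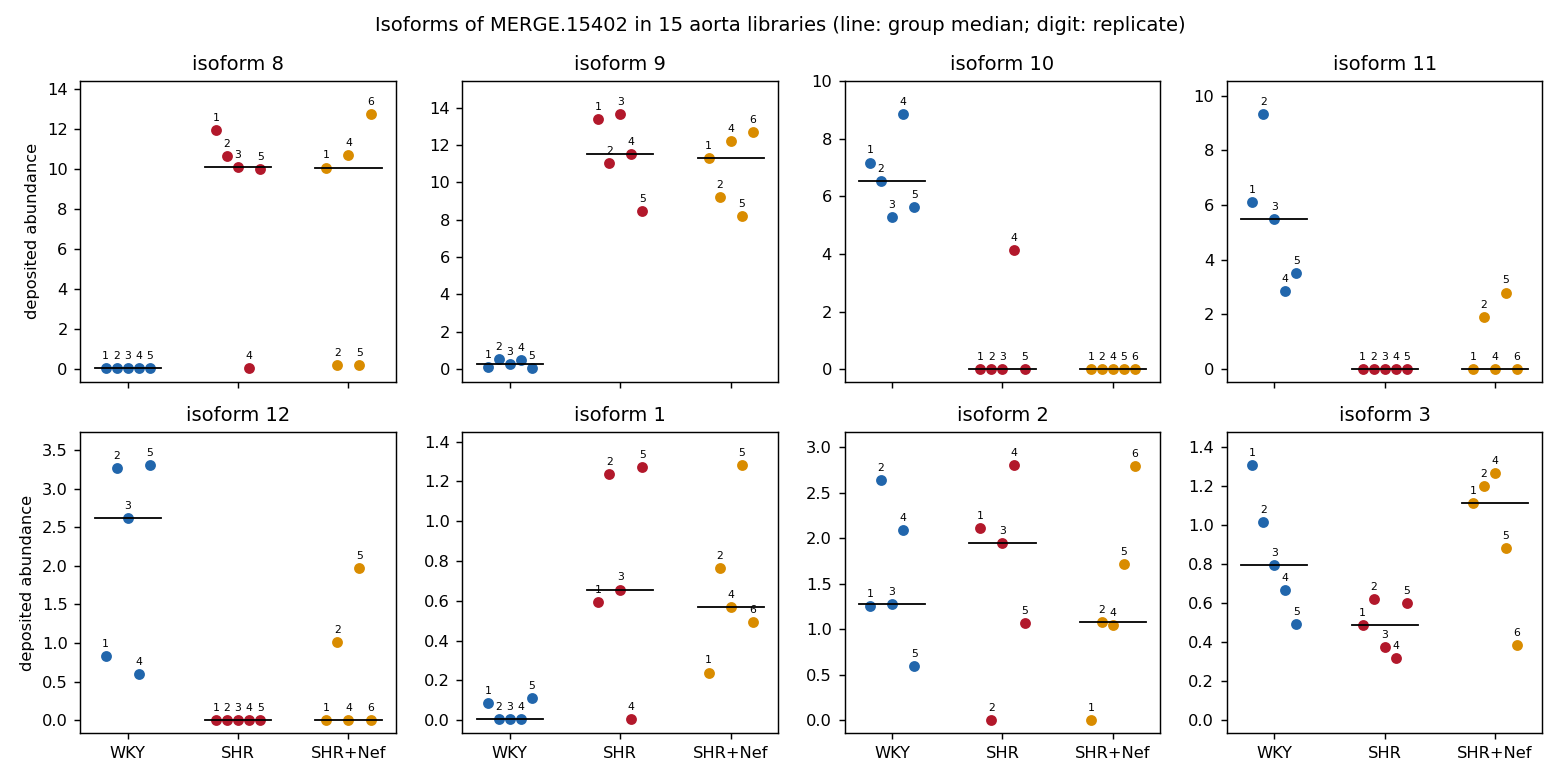
Each panel shows 1 isoform, with the deposited abundance on a linear vertical axis of its own and the 3 groups on the horizontal axis; points are libraries, digits their replicate numbers and lines the group medians. Isoform 9 lies between 8.20 and 13.6 in all 10 SHR and SHR+Nef libraries, while isoform 8 lies near 0 in SHR replicate 4 and SHR+Nef replicates 2 and 5.

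MERGE.15402.8 was as abundant as MERGE.15402.9 in most of the SHR strain, but not in all of it. In WKY replicates 1 to 5 it stood at 0.0545, 0.0412, 0.0490, 0.0509 and 0.0675. In SHR it stood at 11.9, 10.7, 10.1 and 10.0 in replicates 1, 2, 3 and 5 and at 0.0686 in replicate 4. In SHR+Nef it stood at 10.1, 10.7 and 12.7 in replicates 1, 4 and 6, and at 0.209 and 0.208 in replicates 2 and 5. The 15 libraries thus fell at 10.0 to 12.7 or at 0.209 and below, with none between. The lowest SHR value, 0.0686, was barely above the highest WKY value, 0.0675, so the separation of those groups in this isoform rests on a difference near 0.

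MERGE.15402.10, MERGE.15402.11 and MERGE.15402.12 made up most of the locus in WKY. MERGE.15402.10 stood at 7.18, 6.52, 5.27, 8.86 and 5.64 in WKY replicates 1 to 5, was listed at 0 in all 5 SHR+Nef libraries and in 4 SHR libraries, and stood at 4.13 in SHR replicate 4. MERGE.15402.11 stood at 6.10, 9.32, 5.50, 2.85 and 3.52 in WKY, was listed at 0 in all 5 SHR libraries and in SHR+Nef replicates 1, 4 and 6, and stood at 1.92 and 2.80 in SHR+Nef replicates 2 and 5. These isoforms were present in every WKY library, and no SHR or SHR+Nef value of either reached the lowest WKY value. MERGE.15402.11 came close, at 2.80 in SHR+Nef replicate 5 against 2.85 in WKY replicate 4. MERGE.15402.12 was lower and less even, at 0.832, 3.27, 2.62, 0.599 and 3.30 in WKY. It was listed at 0 in the same 8 SHR and SHR+Nef libraries as MERGE.15402.11, and stood at 1.02 and 1.97 in SHR+Nef replicates 2 and 5, which overlaps WKY. An exact 0 can be a failed estimate in a table without counts, so no fold is given against these groups.

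The remaining isoforms were minor. MERGE.15402.1 stood at 0.0041 to 0.113 in WKY with a median of 0.00431, at 0.593 to 1.27 in 4 SHR libraries, at 0.00479 in SHR replicate 4 and at 0.24 to 1.28 in SHR+Nef with a median of 0.571. Its SHR+Nef values lay above all WKY values, while SHR replicate 4 lay among the WKY values. MERGE.15402.2 overlapped in every pair of groups: it ranged from 0.595 to 2.64 in WKY, and was listed at 0 in SHR replicate 2 and SHR+Nef replicate 1, with highest values of 2.80 and 2.79 in those groups. MERGE.15402.3 ranged from 0.492 to 1.31 in WKY, from 0.321 to 0.62 in untreated and from 0.386 to 1.27 in treated SHR, which overlap as well.

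Between SHR and WKY, 5 of the 8 isoforms had values that did not overlap, 8 and 9 higher in SHR and 10, 11 and 12 lower. Over all 29204 transcripts tested in this comparison 2.93% did not overlap, 1.43% higher and 1.5% lower, and nothing is read from the count, since this comparison chose the locus. Without SHR replicate 4 or WKY replicate 5 the count was 6, and with the libraries scaled to a common median it was 4.

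In 3 libraries of the SHR strain MERGE.15402.8 was near 0, and the same 3 libraries held isoforms of the WKY kind. SHR replicate 4, with MERGE.15402.8 at 0.0686, was the SHR library with MERGE.15402.10. SHR+Nef replicates 2 and 5, with MERGE.15402.8 at 0.209 and 0.208, were the treated libraries with MERGE.15402.11 and MERGE.15402.12. In the other 7 SHR and SHR+Nef libraries, all with MERGE.15402.8 at 10.0 or more, isoforms 10, 11 and 12 were all listed at 0. This pattern was seen in the values and has no test. The summed isoforms 10, 11 and 12 held 21.9% of the locus in SHR replicate 4, 19.1% in SHR+Nef replicate 2 and 28.0% in SHR+Nef replicate 5, against 78.8% to 90.4% in WKY.

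**Figure D2:**
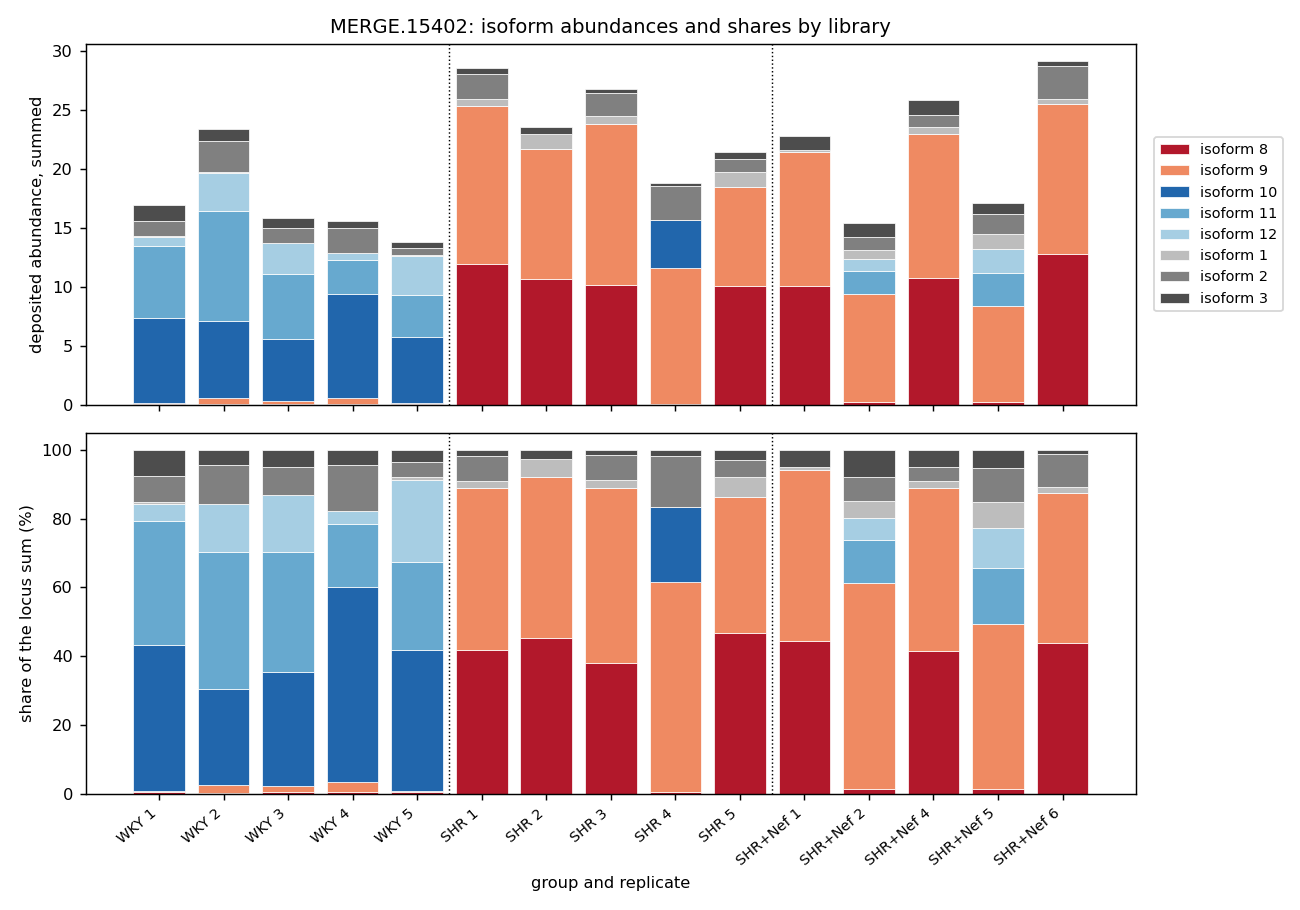
Stacked bars give, for each of the 15 libraries on the horizontal axis, the summed deposited abundance of the 8 isoforms (top) and each isoform's share of that sum in percent (bottom). Isoforms 10, 11 and 12 (blues) fill 78.8% to 90.4% of each WKY bar, and isoforms 8 and 9 (reds) fill 49.3% to 94.0% of each SHR or SHR+Nef bar.

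By share, isoforms 8 and 9 together held 0.837% to 3.45% of the locus in WKY, 61.4% to 92.1% in untreated and 49.3% to 94.0% in treated SHR. The lowest of each SHR range was a library with MERGE.15402.8 near 0, SHR replicate 4 and SHR+Nef replicate 5. The share of MERGE.15402.8 alone overlapped between untreated SHR and WKY, at 0.365% in SHR replicate 4 and 0.176% to 0.490% in WKY. MERGE.15402.9 alone held 1.61 ± 1.17% of the WKY sum, against 49.1 ± 7.91% of the untreated and 49.7 ± 6.08% of the treated SHR sum (SD, n = 5 each). MERGE.15402.10 held 40.3 ± 10.9% and MERGE.15402.11 held 30.9 ± 8.83% in WKY (SD, n = 5), with overlapping ranges of 27.9% to 56.7% and 18.3% to 39.9%. The leading isoform was MERGE.15402.10 in WKY replicates 1, 4 and 5 and MERGE.15402.11 in WKY replicates 2 and 3. It was MERGE.15402.9 in 8 of the 10 SHR and SHR+Nef libraries and MERGE.15402.8 in SHR replicate 5 and SHR+Nef replicate 6, where the shares of isoforms 8 and 9 were 46.8% and 39.5%, and 43.8% and 43.6%. Isoforms 1, 2 and 3 together held 14.2 ± 3.47% of the WKY sum, against 12.1 ± 3.26% of the untreated and 14.5 ± 6.77% of the treated SHR sum (SD, n = 5 each), which differ by less than their spread. Within that sum the isoforms did not move alike: the share of MERGE.15402.3 was 3.57% to 7.74% in WKY and 1.40% to 2.80% in untreated SHR, which do not overlap, and 1.33% to 7.79% in treated SHR. The share of MERGE.15402.1 was 0.282 ± 0.369% in WKY against 3.15 ± 2.43% in untreated and 3.48 ± 2.70% in treated SHR (SD, n = 5 each), with SHR replicate 4 among the WKY values.

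Neferine-treated SHR, of the same strain as the SHR libraries that chose the locus, were compared with WKY. The WKY libraries entered that choice too, so the comparison is new on the treated side alone. It is no independent check of the strain pattern. MERGE.15402.9 was higher in SHR+Nef by 3.19 on the log2(value + 1) scale (SE 0.18, limma, adjusted p = 1.03e-07), and higher in 5 of 5 treated libraries than in any WKY library. MERGE.15402.10 fell by 2.92 log2 units (SE 0.38, limma, adjusted p = 0.000855), and MERGE.15402.11 fell by 1.91 (SE 0.39, limma, adjusted p = 0.0229). MERGE.15402.10 and MERGE.15402.11 were each lower in 5 of 5 treated libraries than in any WKY library. For MERGE.15402.11 this rests on a narrow gap, 2.80 in SHR+Nef replicate 5 against 2.85 in WKY replicate 4. These 3 isoforms passed the filter on low values through the groups in which they are high, MERGE.15402.10 through WKY alone but for SHR replicate 4, and the WKY values also entered the choice of the locus. Their p-values are therefore not independent of that choice.

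The other tested isoforms did not pass in that comparison. MERGE.15402.8 had a difference of 2.20 (SE 0.81, limma, adjusted p = 0.349), its values falling at 10.1 to 12.7 or at 0.208 to 0.209 within the treated group. Without SHR+Nef replicate 2 or 5 the difference was 2.69 each time and did not pass either (limma, adjusted p = 0.195 and 0.201). MERGE.15402.12 had a difference of -1.0 (SE 0.36, limma, adjusted p = 0.323). For MERGE.15402.2 and MERGE.15402.3 the differences were -0.21 and 0.08 (SE 0.40 and 0.18, limma, adjusted p = 0.973 and 0.981). MERGE.15402.1 was not tested, since it reached a value of 1 in 3 libraries and the filter asks for 5. The 3 calls stand among 377 of 29095 transcripts, 1.3%, with 0.818% higher and 0.478% lower in SHR+Nef. The number of calls is a description of the locus, for the reasons given above. In 5 of the 8 isoforms the SHR+Nef and WKY values did not overlap, 1, 8 and 9 higher and 10 and 11 lower. MERGE.15402.1 was not among the transcripts tested, of which 4.2% did not overlap, 2.68% higher and 1.51% lower. Nothing is read from the count, since the WKY values entered the choice of the locus. The gap was narrow in MERGE.15402.11 (2.80 against 2.85), and lay near 0 in MERGE.15402.8 (0.208 against 0.0675) and MERGE.15402.1 (0.240 against 0.113). The call of MERGE.15402.11 did not survive leaving out any of WKY replicates 1, 2 and 3 and SHR+Nef replicates 1, 4 and 6 (differences from -1.89 to -1.72, limma, adjusted p between 0.0639 and 0.0703), nor 3 other settings given further below.

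**Figure D3:**
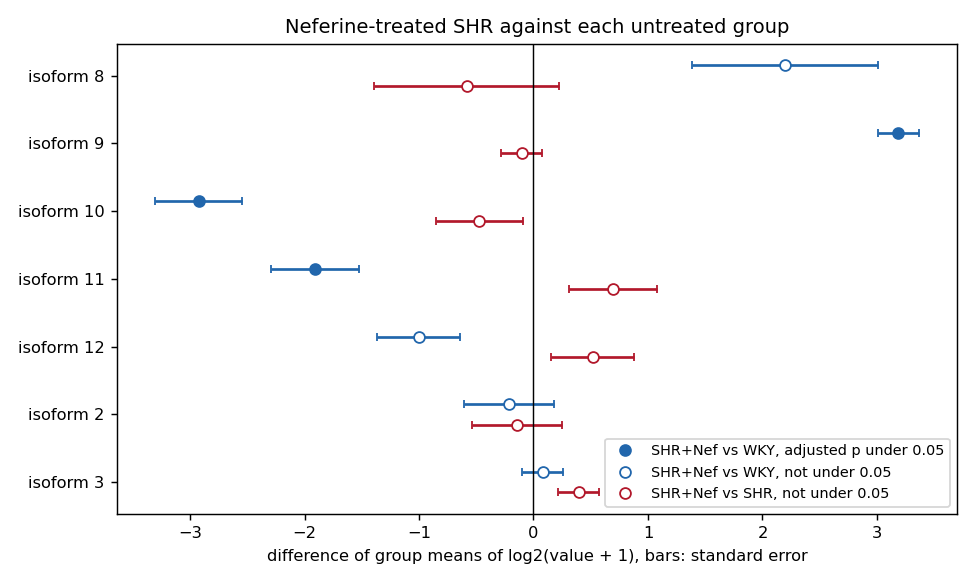
Points give, for each of the 7 tested isoforms on the vertical axis, the difference of group means of log2(value + 1) between SHR+Nef and WKY (blue) or SHR (red), with bars of 1 standard error; filled points have an adjusted p under 0.05 (limma). Against WKY isoform 9 lies at 3.19, isoform 10 at -2.92 and isoform 11 at -1.91, and against SHR all 7 points are open.

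Each isoform was also set against the mean log2(value + 1) of the other tested isoforms of its locus, which removes a change that all share on that scale. Isoforms at or near 0 hardly move on it, so a change of the locus as a whole is not fully removed. Between SHR+Nef and WKY the shift of MERGE.15402.9 was 3.82 (SE 0.23, limma, adjusted p = 1.17e-06) and that of MERGE.15402.10 was -3.31 (SE 0.47, limma, adjusted p = 0.00545), a call that ended in 1 other setting given further below. With a pseudocount of 0.1 these shifts were 6.50 and -6.42, so their size depends on that setting. Here too the WKY values had entered the choice of the locus. MERGE.15402.11 did not pass, at -2.13 (SE 0.45, limma, adjusted p = 0.0641). It passed without SHR+Nef replicate 2 or 5, the treated libraries in which it is above 0, with shifts of -2.41 and -2.48 (limma, adjusted p = 0.0387 and 0.0212). Of the 11430 isoforms 0.411% were called, 0.175% higher and 0.236% lower. Between SHR+Nef and SHR no isoform shift was called in any locus, 0 of 11430 (limma, 688 with an unadjusted p under 0.05), and the shifts at this locus ranged from -0.73 for MERGE.15402.8 to 0.76 for MERGE.15402.11.

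Between SHR+Nef and SHR no isoform of the locus passed, and in all 8 the values of the groups overlapped. MERGE.15402.9 differed by -0.10 log2 units, with a 95% interval from -0.49 to 0.29 (limma, adjusted p = 0.893). For MERGE.15402.8 the difference was -0.58 with a wide interval from -2.32 to 1.15 (limma, adjusted p = 0.86), the value near 0 occurring in 1 of 5 untreated and 2 of 5 treated libraries. That difference was -1.27 without SHR replicate 4 and -0.09 without SHR+Nef replicate 2 or 5 (limma, adjusted p from 0.979 to 0.988). MERGE.15402.3 had the smallest p of the locus, a difference of 0.40 with an interval from 0.01 to 0.78 (limma, unadjusted p = 0.0452, adjusted p = 0.78). The differences of MERGE.15402.11 and MERGE.15402.12, 0.69 and 0.52 (limma, adjusted p = 0.78 each), come from SHR+Nef replicates 2 and 5, the treated libraries in which they are not listed at 0. They were 0.48 and 0.39 without SHR+Nef replicate 2, and 0.39 and 0.25 without SHR+Nef replicate 5 (limma, adjusted p from 0.831 to 0.903). That of MERGE.15402.10, -0.47 (limma, adjusted p = 0.785), comes from SHR replicate 4, without which it is listed at 0 in every library of both groups. Calls made up 0.00687% of the 29095 transcripts tested, and 1.08% did not overlap between the groups. This comparison and that of SHR with WKY share the SHR libraries.

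The summed output of the locus overlapped between the groups. The sum was 16.9, 23.3, 15.8, 15.6 and 13.8 in WKY replicates 1 to 5, and 28.5, 23.5, 26.7, 18.8 and 21.4 in SHR replicates 1 to 5. In SHR+Nef replicates 1, 2, 4, 5 and 6 it was 22.7, 15.4, 25.8, 17.1 and 29.1. The lowest sums of the SHR strain were those of SHR replicate 4 and SHR+Nef replicates 2 and 5, the libraries of that strain with MERGE.15402.8 near 0. The mean sum was 17.1 ± 3.67 for WKY, against 23.8 ± 3.93 for untreated and 22.0 ± 5.78 for treated SHR (SD, n = 5 each), 1.39-fold and 1.29-fold the WKY mean. The sum did not pass between SHR+Nef and WKY, with a log2 difference of 0.33 and a 95% interval from -0.08 to 0.74 (limma, adjusted p = 0.656, 2.3% of 10401 loci called). Nor did it pass between SHR+Nef and SHR, with a difference of -0.13 and an interval from -0.54 to 0.28 (limma, adjusted p = 0.857, 0.0288% called). That difference was -0.018 without SHR+Nef replicate 2, -0.053 without SHR+Nef replicate 5 and -0.21 without SHR replicate 4 (limma, adjusted p from 0.962 to 0.984).

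The isoform make-up of libraries was compared by the summed absolute differences of their 8 shares divided by 2, so that 0 means equal shares and 100 no isoform in common. WKY libraries lay 8.81 to 31.9 percentage points from each other and 55.1 to 96.0 points from the libraries of the SHR strain. The 7 SHR and SHR+Nef libraries with MERGE.15402.8 at 10.0 or more lay 3.63 to 13.9 points from each other. They were picked on that isoform, whose share enters the distance, so their closeness follows in part from the choice. Over all 25 pairs of an SHR and an SHR+Nef library the distance was 3.63 to 48.2, with a median of 31.1. SHR replicate 4 lay 31.1 to 53.5 points from the rest of its strain and 59.5 to 71.3 from WKY. SHR+Nef replicates 2 and 5 lay 14.5 points from each other, 31.1 and 39.8 from SHR replicate 4, and 66.5 to 71.4 and 55.1 to 64.7 from WKY. By this distance these 3 libraries lay nearer to WKY than the other 7 libraries of the SHR strain did, though nearer to their own strain. Their shares were not between the strains in every isoform. MERGE.15402.9 held at most 51.0% in the other 7 libraries, against 61.1% in SHR replicate 4, 59.8% in SHR+Nef replicate 2 and 48.0% in SHR+Nef replicate 5.

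**Figure D4:**
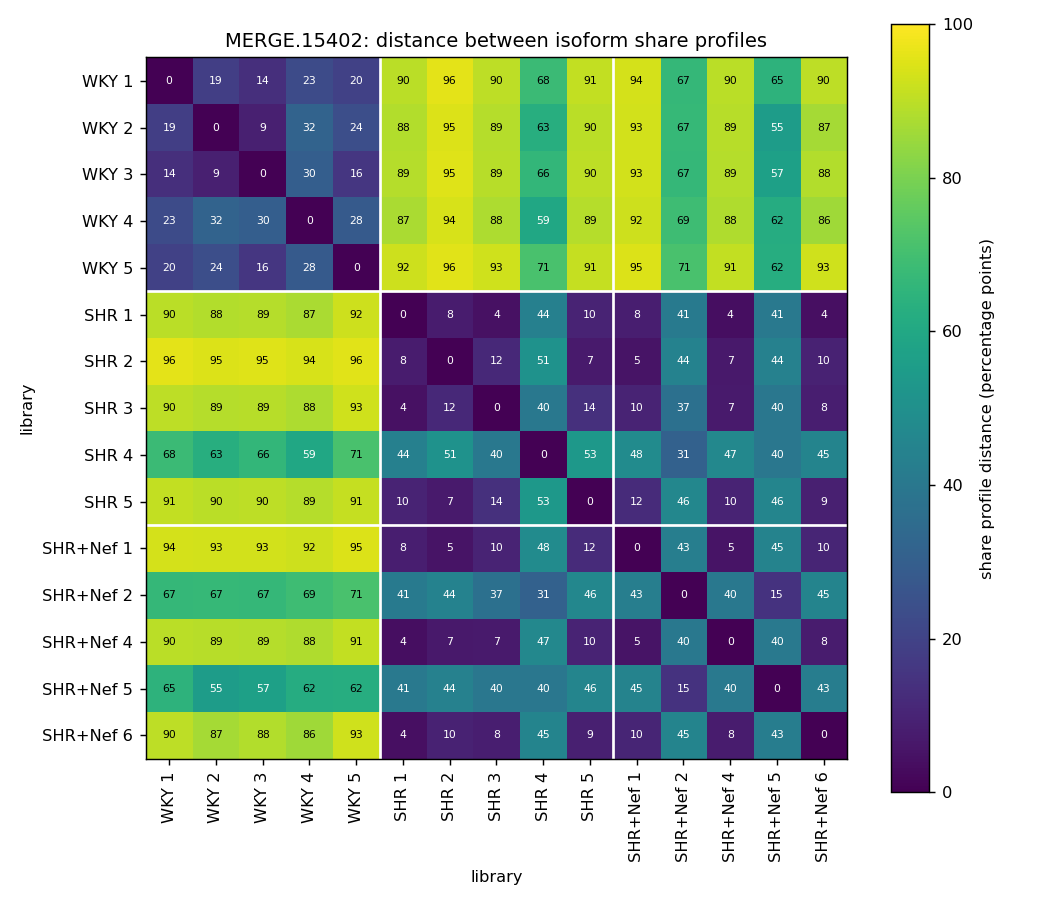
Each cell gives the distance in percentage points between the isoform shares of the libraries on the horizontal and vertical axes, also shown by colour from 0 to 100, with white lines between the groups. WKY stands 55.1 points or more from every other library, and SHR replicate 4 and SHR+Nef replicates 2 and 5 stand out as bands within the SHR strain.

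In the median over transcripts of other loci called between the strains, the 3 libraries with MERGE.15402.8 near 0 lay near their group. Over 357 transcripts of other loci called between SHR and WKY, with WKY set at 0 and SHR at 1, SHR+Nef replicates 2 and 5 had median positions of 0.958 and 0.956, and the other treated libraries 0.901 to 0.953. Over 374 transcripts of other loci called between SHR+Nef and WKY, SHR replicate 4 was at 0.897, and the other SHR libraries at 0.873 to 0.945. These are medians over transcripts picked for a strain difference. Why the shares of the 3 libraries at MERGE.15402 lie nearer to WKY than those of their strain's other libraries was not tested.

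Among 3878 assembled loci with 2 or more tested isoforms, the distance between the group mean shares of MERGE.15402, over its 7 tested isoforms, was 76.6 points between SHR+Nef and WKY, where the median locus had 11.3. The WKY values entered the choice of the locus, so its place among the loci in this comparison is a description. Between SHR+Nef and SHR it was 14.0 points, against a median of 11.9, with 1666 loci larger. The leading isoforms of the SHR+Nef libraries and of the WKY libraries had none in common at this locus, as at 0.67% of the loci, and the share was 0.722% between SHR and WKY. The locus is also one of many isoforms: 247 of 13384 assembled loci, 1.85%, had 8 or more listed for all 15 libraries.

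The spread of MERGE.15402.8 was above that of the median transcript of like level in both groups of the SHR strain. Within SHR its SD of log2(value + 1) was 1.54, against a median of 0.56, and 13.0% of 7047 transcripts with a group mean within a factor of 2 had an SD as large. Within SHR+Nef its SD of log2(value + 1) was 1.83, where 8426 such transcripts had a median of 0.35 and 4.78% had an SD as large. For MERGE.15402.9 the SD in SHR+Nef was 0.25, below the 0.29 of the median transcript of like level.

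The transcripts of other loci most like the isoforms that differ most between the strains were found by the root mean square difference of centred log2(value + 1) values over the 15 libraries. Nearest to MERGE.15402.9 was ENSRNOT00000003413, at a distance of 0.29, with values of 0.299 to 1.33 in WKY, 12.7 to 20.1 in untreated and 15.5 to 18.5 in treated SHR. Next was MERGE.18544.4, at 0.36, listed at 0 throughout WKY, with 4.41 to 8.56 in untreated and 4.45 to 6.50 in treated SHR. Both had high values in all 10 libraries of the SHR strain, which follows from picking them by likeness to MERGE.15402.9. Nearest to MERGE.15402.11, which had the largest negative difference between SHR and WKY, were MERGE.18608.55 and MERGE.18618.1, at distances of 0.60 and 0.61. That difference was -2.60, against -2.45 for MERGE.15402.10, which in SHR was above 0 in replicate 4 alone. The choice of MERGE.15402.11 over MERGE.15402.10 thus rests on that library. MERGE.18608.55 ranged from 10.8 to 14.6 in WKY and from 0.905 to 3.75 in the other libraries, and MERGE.18618.1 from 7.15 to 10.1 in WKY and from 0.859 to 1.76 in the others. The median distance over 27092 transcripts was 1.63 from MERGE.15402.9 and 1.33 from MERGE.15402.11.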

How the data were processed

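Per the labels' protocols, ribosomal RNA was removed from total RNA and NEB kits were used for the libraries. For each library the authors deposited a signal per transcript, fractional and never negative. The scale, aligner, assembler, estimator and read depth were not given in the sources used here, so no counting intervals are given. Per the submitters' processing notes the build was mm10, a mouse build, and limma was used, while the sample labels give rat. The tables hold transcripts with a mean of at least 0.5 in a compared group.

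Transcripts reaching 1 in 5 or more of the libraries entered limma 3.58.1 (R 4.3.3) as log2(value + 1) (trend and robust options, two-sided, 3 groups in 1 model, 12 residual degrees of freedom), with Benjamini-Hochberg adjustment over all of them and calls at 0.05. Differences on this scale understate the change of low transcripts. Locus sums and isoform shifts were fitted likewise over all loci. The fits were tested on simulated data with normal noise and no exact zeros. Such data do not cover isoforms listed at 0 or near 0 in some libraries and high in others, as here. Each library was taken as a separate rat, which the labels do not state outright; otherwise p-values cover just the spread between these samples, possibly technical. The smallest SD of log2 differences between any 2 libraries was 0.901, so none looked like a copy. All isoforms were named; transcripts of other loci were named by likeness, 2 for each of 2 isoforms. Of 47357 genes in the RefSeq table at hand 0 have an Ensembl ID, so no ID could be matched to a symbol, and the cell type markers were not tested. The members and lists were chosen with earlier results of these data known. Alternatives were other moderation, array weights, scaling, quantile normalization, filters, a pseudocount of 0.1, only the groups compared, shares in percent, a replicate block and each library left out. Figures used matplotlib 3.10.9 in Python 3.11.15.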

Additional observations from a re-analysis of the deposited data

Results flagged for a closer look

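Each group's 5 libraries were searched for 1 lying far from the other 4, in 51 sets of values and shares. Chance alone would pick out about 5% of such sets. In 4 sets a library stood apart, each time SHR replicate 4: its value of MERGE.15402.8 was 0.0686 and its share 0.365%, below the other SHR libraries, and its value of MERGE.15402.10 was 4.13 and its share 21.9%, where the other SHR libraries were listed at 0. Values and shares of an isoform, and isoforms of a locus, are not independent sets. This library is also the one with 8259 transcripts at 0, whose part in these values was not tested. SHR+Nef replicates 2 and 5, which share the low value of MERGE.15402.8, were not picked out, since 2 such libraries in a group hide each other from this search.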

How the results depend on the processing

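The counts of called isoforms kept within 1.5 times of their main value except 1: isoform shifts between SHR+Nef and WKY fell from 2 to 1 with the replicate block, where the shift of MERGE.15402.10 had an adjusted p of 0.0652 (limma). Same-numbered libraries did not deviate together (correlations from -0.067 to 0.027, none best with its own number in either pair of groups), so the numbers do not pair the rats. With the block 2 isoforms were called by value between SHR+Nef and WKY. The call of MERGE.15402.11 ended with the block (adjusted p 0.14), with a pseudocount of 0.1 (0.0795) and with only the 2 groups compared (0.0871, limma). Calls between SHR+Nef and WKY were 2 or 3 in every setting, those of MERGE.15402.9 and MERGE.15402.10 by value holding in all 24 alternatives each. The alternatives reuse WKY libraries that entered the choice of the locus, so they are no independent support for these calls. The locus sum kept its direction and did not pass in any setting. Reversed differences, none of them called, were those of MERGE.15402.2 and one of MERGE.15402.9. With 1 library left out, MERGE.15402.2 ranged from -0.451 to 0.13 in value and from -0.538 to 0.0638 in shift against SHR, and from -0.423 to 0.0578 and from -0.359 to 0.128 against WKY. It turned positive without SHR+Nef replicate 1 in each, and in value against SHR also without SHR replicate 4. The shift of MERGE.15402.9 against SHR was 0.42 with a minimum of 5 in 5 libraries, which leaves fewer isoforms to set it against. How reads were divided among isoforms that share sequence was not tested.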

Other observations

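In the 7 libraries with MERGE.15402.8 at 10.0 or more, MERGE.15402.9 stood at 0.843 to 1.35 times its value, so the 2 isoforms were present at similar levels. In SHR replicate 4 the ratio was 167, and in SHR+Nef replicates 2 and 5 it was 44.2 and 39.3.

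Exact zeros at the locus fell in the SHR strain alone. In the 5 WKY libraries 0 of the 8 isoforms were listed at 0, with low isoforms at values such as 0.0041, while 2 to 4 were listed at 0 in each SHR library and 1 to 4 in each SHR+Nef library. Over all transcripts listed for all 15 libraries, zeros were not fewer in WKY, at 3243 to 3739, than in SHR+Nef, at 2847 to 3455.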
